A study of Bos taurus with 20 samples.

Results

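The conjugating enzymes of the liver described here were the members of 3 families: the UDP-glucuronosyltransferases (UGT), the sulfotransferases (SULT) and the glutathione S-transferases (GST) of the cytosolic classes and the kappa class. They were chosen by gene symbol alone, as every symbol of the deposited workbook that starts with UGT1 to UGT8, with SULT1 to SULT6, or with GST and a class letter A, K, M, O, P, T or Z before a digit. This gave 31 of the 20011 genes with a symbol, 5 UGT, 11 SULT and 15 GST. They were measured by 34 probe sets, sets of short probes that are summarised to 1 value per array, and the brighter probe set was used for GSTA3, GSTM1 and SULT1C4, which had 2 each.

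The study asked what a low phosphorus ration before calving did to the liver of dairy cows. Liver RNA of 10 Holstein-Friesian cows of 1 research herd was hybridised to Affymetrix arrays, 1 array per sample, once before calving (antepartum) and once after it (postpartum), with n = 5 cows per diet and 20 arrays in all. All cows had calved before, were entering lactation 2 to 4, and received at most 11.5 kg of dry matter per day in the dry period, the weeks before calving without milking. In the last 4 weeks of it the ration held 0.16% phosphorus of dry matter in the low phosphorus group (LP, cows A to E), with urea added to even out nitrogen, and 0.35% in the adequate phosphorus group (AP, cows F to J), with mono-ammonium phosphate as the supplement. After calving every cow received 1 lactation ration with adequate phosphorus, so the postpartum comparison of diets is one of earlier feeding. The 10 cows came from a trial of 30. Values are log2 signals, in which a difference of 1 is a 2-fold change, and n is the number of cows.

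Conjugation makes a lipophilic molecule more soluble in water by attaching a polar group to it, and the liver is its main site. UGT enzymes of the endoplasmic reticulum transfer glucuronic acid from UDP-glucuronate to bilirubin, steroids, bile acids, plant phenols and drugs. SULT enzymes of the cytosol transfer sulfate from the donor PAPS to phenols, steroid hormones and bile acids, and GST enzymes couple glutathione to reactive electrophiles. Products leave the cell through transporters of bile or blood.

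One array, from cow C after calving, differed from the other 19. Its mean signal over 6 fibroblast markers was 12.25 against 6.97 to 8.51 elsewhere, over 5 adipocyte markers 9.26 against 4.32 to 5.01, and over 6 periportal hepatocyte markers 9.57 against 10.18 to 10.96. Its mean over 6 hepatocyte markers, ALB among them, was 12.15, within the 12.13 to 12.45 of the rest, so hepatocyte signal was present. SERPINA1, also among these markers, was at 12.54 in it against 12.61 to 13.05 elsewhere. A mean of such bright markers cannot show what share of the sample was liver tissue. In this array 14 of the 31 members (45.2%) had their lowest value of all arrays, against 18.8% of all genes, and 1 (3.23%) its highest, against 14.6% of all genes. The exception was GSTP1, the pi class transferase, at 10.51 in cow C against 7.56 to 8.25 in the other LP cows postpartum. The antepartum array of cow F had the highest mean over 6 skeletal muscle markers, 6.93, followed by 6.78 in the same cow C array and 5.01 to 5.68 elsewhere. The part of other cell types in these values was not tested, and in bulk tissue fewer cells of a type and less RNA per cell cannot be told apart. For calving over both diets, member differences that changed sign or moved by over 1.5 times without the cow C array are given both ways.

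Across calving 2 of the 31 members passed the test over both diets, both of them GST genes. GSTT2, a theta class transferase, rose and GSTM2, a mu class transferase, fell. These were 2 of 31 members, where 1.5% of all 20011 genes passed (limma, Benjamini-Hochberg adjusted p under 0.05). At an unadjusted p under 0.05 there were 7 members, where 11.9% of all genes stood. No UGT and no SULT gene passed. The median difference, postpartum minus antepartum, was 0.02 over all members, 0.013 over UGT, 0.084 over SULT and -0.109 over GST, beside -0.012 over all genes.

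**Figure D1:**
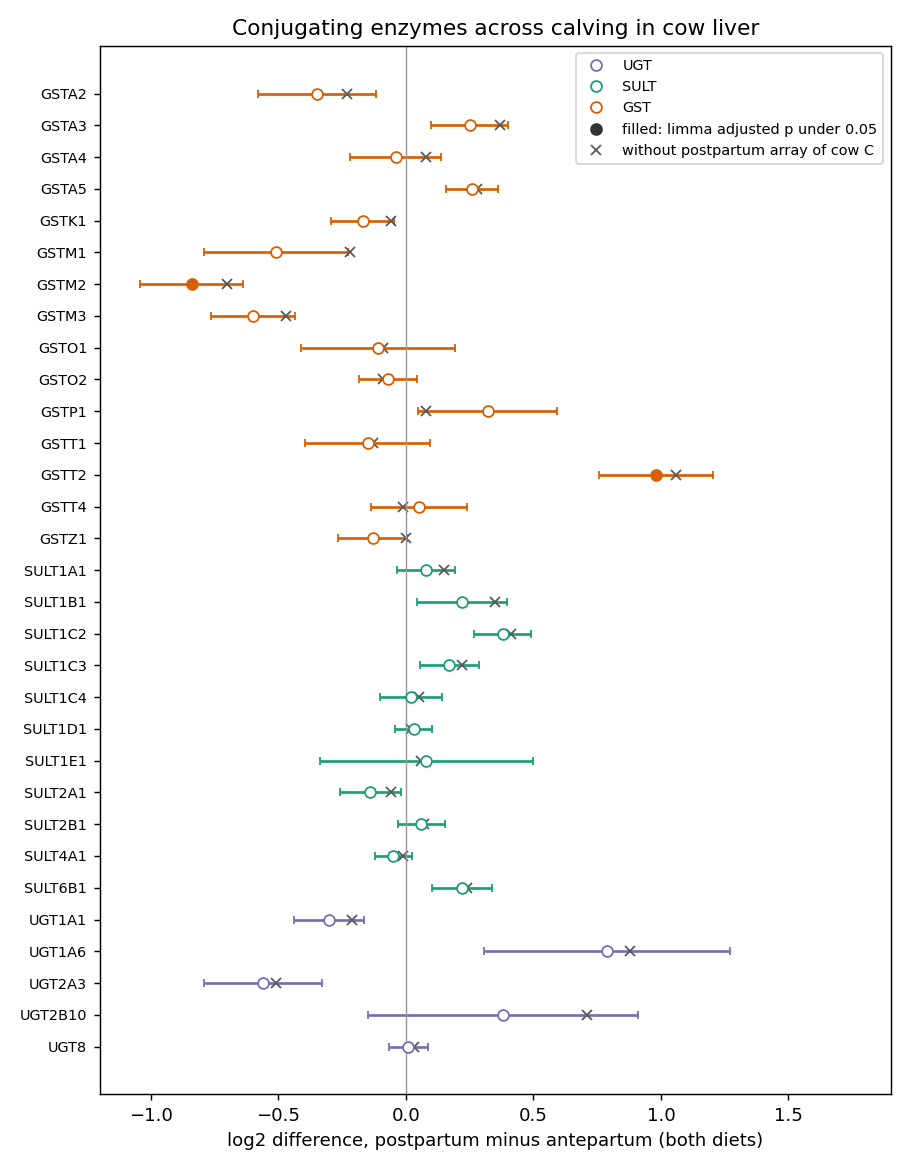
Log2 difference, postpartum minus antepartum over both diets, for each of the 31 conjugating enzymes (circle, with bars of 1 SE from limma; colour gives the family). Filled circles mark adjusted p under 0.05 and crosses give the difference without cow C's postpartum array. GSTT2 at 0.98 and GSTM2 at -0.84 are the filled circles.

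GSTT2 belongs to the theta class, which acts on small halogenated and sulfate-bearing substrates. The workbook places its probe set at chr17:73309907-73315353, in a genome build that it does not name. In AP cows F to J it measured 8.65, 9.45, 9.58, 8.54 and 8.64 antepartum and 9.82, 10.68, 10.20, 9.73 and 10.18 postpartum. In LP cows A to E it measured 9.21, 8.85, 9.15, 9.39 and 8.10 antepartum and 10.42, 9.48, 9.14, 10.71 and 9.01 postpartum. All AP cows were higher after calving than any AP cow before it, while the LP groups overlapped and cow C alone did not rise. Over both diets GSTT2 was 1.97-fold higher postpartum (0.98 on the log2 scale, SE 0.223, limma adjusted p = 0.0267, with 9 of 10 cows higher). With the cow as a block the adjusted p was 0.00194, and without cow C's postpartum array the difference was 1.06 (adjusted p = 0.00953). The call was lost without cow D, F, I or J, with adjusted p of 0.05, 0.0708, 0.0701 and 0.0883, and without cow F's antepartum array alone (0.0579).

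Within the diets GSTT2 differed by 1.15 in AP (SE 0.315, 5 of 5 cows), where the limma adjusted p of 0.119 missed the threshold and that with the cow as a block, 0.012, passed it. In LP the difference was 0.81 (SE 0.315, adjusted p = 0.763, higher in 4 of 5 cows). The authors' deposited table gave the GSTT2 probe set an unadjusted paired p of 7.67e-05. Adjusted over all probe sets of that table, GSTT2 had the lowest value among the members, 0.0339, and was the 1 member probe set among the 83 that passed.

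The other theta class genes lie beside GSTT2 in the workbook's annotation. GSTT1 differed by -0.15 (SE 0.246) and GSTT4 by 0.05 (SE 0.188), and neither passed (adjusted p = 0.902 and 0.964). Without cow C's postpartum array GSTT4 was at -0.01. The unnamed neighbour LOC101904076, described as theta-1-like, was at 0.00 (SE 0.0917). Of these 4 adjacent probe sets, GSTT2 was the 1 that passed.

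GSTM2 is a mu class transferase, a class known for detoxifying epoxides and quinones. In AP cows F to J it measured 10.58, 10.36, 10.36, 10.90 and 9.94 antepartum and 10.03, 8.74, 9.01, 8.96 and 9.67 postpartum. In LP cows A to E it measured 10.18, 9.73, 10.30, 9.77 and 9.59 antepartum and 10.28, 9.37, 8.30, 9.35 and 9.61 postpartum. The largest drops were in cows C, I, G and H, at -2.01, -1.93, -1.62 and -1.35, and cows A and E changed by 0.09 and 0.01. GSTM2 was 1.79-fold lower over both diets (-0.84 on the log2 scale, SE 0.203, limma adjusted p = 0.0379, with 8 of 10 cows lower). With the cow as a block the adjusted p was 0.0515, which missed the threshold. Without cow C's postpartum array the difference was -0.70 (adjusted p = 0.0266), while without both arrays of cow C the adjusted p was 0.052. It was also lost without cow B, D, E, G, H or I, with 0.0574, 0.0882, 0.0667, 0.0932, 0.109 and 0.144, and without cow F's antepartum array (0.0734).

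In AP the GSTM2 difference was -1.15 (SE 0.287, limma adjusted p = 0.0811, lower in 5 of 5 cows), and it passed without cow C's postpartum array, which left the AP values unchanged and lowered the pooled spread (adjusted p = 0.0148). In LP it was -0.53 (SE 0.287), with 3 of 5 cows lower, and -0.26 without that array. The difference between the diets in this change was 0.61 (SE 0.405), or 0.88 (SE 0.341) without the array, and passed in neither fit (adjusted p of 1.0 in both).

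GSTM3 was lower postpartum in 10 of 10 cows, the 1 member that moved the same way in all of them (3.23% of the members, where 1.5% of all genes did so). In AP cows F to J it measured 10.20, 10.41, 10.25, 10.57 and 10.33 antepartum and 10.02, 9.50, 9.64, 10.12 and 9.77 postpartum, without overlap. In LP cows A to E it measured 9.92, 10.04, 10.59, 9.98 and 9.54 antepartum and 9.74, 10.02, 8.28, 9.41 and 9.29 postpartum, with cow C far below the others and cow B nearly level. The log2 difference was -0.60 (SE 0.166) with a limma adjusted p of 0.077. Without cow C's postpartum array it was smaller, -0.47, and passed (adjusted p = 0.0426), with 2.73% of all genes passing in that fit. When each cow was left out in turn, GSTM3 passed only without cow B, and so not without both arrays of cow C.

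GSTM1 was measured at 2 places. The brighter probe set gave -0.51 (SE 0.283, limma adjusted p = 0.525) and was lower in 5 of 10 cows, with cow C at 8.31 postpartum against 11.15 to 11.33 in the other LP cows. Without that array it was at -0.22 (adjusted p = 0.488), and in LP alone at -0.07 in place of -0.66. The dimmer one, at chr3:33805751-33816442, gave -0.71 (SE 0.158, adjusted p = 0.0226, lower in 10 of 10 cows), and -0.66 without the array (adjusted p = 0.0243). The call was lost without cow D, E, G, H or I, with adjusted p of 0.0581, 0.0553, 0.0579, 0.0823 and 0.0914. The accessions of these 2 probe sets belong to LOC783879 and LOC327709 in RefSeq, so that they may report different mu class genes. Near-identical copies can share probes, and the 2 values are therefore uncertain as to gene.

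Where 46.1% of all genes had a mean change above 0, all 6 probe sets annotated along the mu class cluster were below 0. In the order of the annotation these were GSTM3 at -0.60, LOC615514 at -0.14, the dimmer GSTM1 set at -0.71, GSTM2 at -0.84, LOC100295687 at -0.54 and the brighter GSTM1 set at -0.51. GSTM2 and the dimmer GSTM1 set passed. Without cow C's postpartum array the 6 values were -0.47, -0.20, -0.66, -0.70, -0.49 and -0.22. LOC615514 and LOC100295687 are described as mu class genes but have no family symbol and so are no members. LOC100295687 was dim, with group means of 3.56 to 4.46, below the lower quartile of the arrays, 4.67 to 4.98. LOC615514 had means of 6.25 and 5.87 before and after calving in AP, and of 5.84 and 5.94 in LP.

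**Figure D2:**
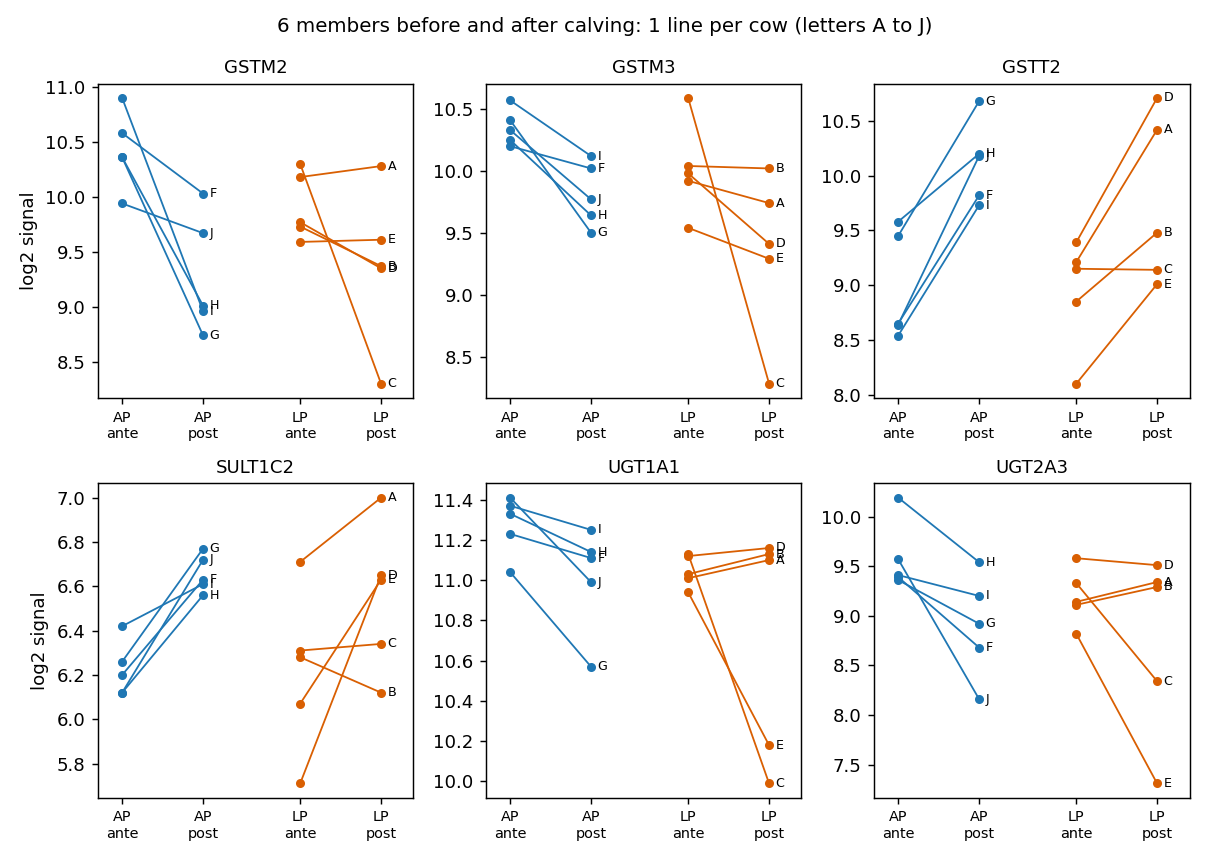
Log2 signal of 6 members before and after calving, 1 line per cow with its letter, AP in blue and LP in orange. GSTT2 rises in all cows but C, GSTM3 is lower in every cow after calving, and cow C has the lowest postpartum value of GSTM2, GSTM3 and UGT1A1.

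The alpha class, known for acting on lipid peroxides and steroids, went both ways with no call. GSTA2 differed by -0.35 and GSTA4 by -0.04, and GSTA3 by 0.25 and GSTA5 by 0.26. Without cow C's postpartum array GSTA2 was at -0.23 and GSTA4 at 0.08. GSTA5 had an unadjusted p of 0.0197 (limma adjusted p = 0.275, higher in 8 of 10 cows), but its signal of 4.62 to 5.56 lay near the lower quartile of all genes on the arrays, 4.67 to 4.98. The second probe set of GSTA3 gave -0.27 where the brighter one gave 0.25, and neither passed. Cow A stood low for GSTA3 before calving, at 9.35 against 10.02 to 10.2 in the other LP cows.

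The single-gene classes stayed without a call. GSTP1 differed by 0.32, and by 0.08 without cow C's postpartum array. GSTK1, the kappa class enzyme of mitochondria and peroxisomes, differed by -0.17, and GSTZ1, the maleylacetoacetate isomerase of tyrosine breakdown, by -0.13. Without that array GSTK1 was at -0.06 and GSTZ1 at 0.00. The omega class genes GSTO1 and GSTO2, which reduce dehydroascorbate, differed by -0.11 and -0.07.

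Among the SULT genes 9 of 11 were higher postpartum on average, beside 9227 of all 20011 genes, and none passed. SULT1C2, a phenol sulfotransferase of the 1C group, came closest. In AP cows F to J it measured 6.20, 6.26, 6.12, 6.42 and 6.12 antepartum and 6.63, 6.77, 6.56, 6.61 and 6.72 postpartum, with no overlap. In LP cows A to E it measured 6.71, 6.28, 6.31, 5.71 and 6.07 antepartum and 7.00, 6.12, 6.34, 6.65 and 6.63 postpartum. Cow B was lower and cow C level, and the LP groups overlapped. The difference over both diets was 0.38 (SE 0.112, limma adjusted p = 0.104, with 9 of 10 cows higher), and it passed without cow A or cow B (adjusted p = 0.0429 and 0.0487). In AP, 3 members (GSTM3, GSTT2 and SULT1C2) had groups that did not overlap, which 4.2% of all genes shared.

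SULT2A1, the hydroxysteroid and bile acid sulfotransferase, had group means between 11.74 and 12.01 and differed by -0.14, and by -0.06 without cow C's postpartum array. SULT1A1, the main phenol sulfotransferase of human liver, had group means of 11.09 to 11.25 and differed by 0.08, or 0.15 without that array. SULT1B1, which acts on thyroid hormones, differed by 0.22, SULT1C3 by 0.17 and SULT1C4 by 0.02. Without the array SULT1B1 was at 0.35 and SULT1C4 at 0.05. SULT6B1 differed by 0.22 (SE 0.118, adjusted p = 0.503) at a signal of 2.84 to 3.90, below the lower quartile of the arrays. SULT2B1, which sulfates cholesterol, differed by 0.06, SULT4A1, known mainly from brain, by -0.05 (-0.01 without it), SULT1D1 by 0.03 and SULT1E1 by 0.08.

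The 5 UGT members had no call either. UGT1A1, the bilirubin transferase, measured 11.23, 11.04, 11.33, 11.37 and 11.41 antepartum in AP cows F to J and 11.11, 10.57, 11.14, 11.25 and 10.99 postpartum. In LP cows A to E UGT1A1 measured 11.01, 11.03, 11.13, 11.12 and 10.94 antepartum and 11.10, 11.13, 9.99, 11.16 and 10.18 postpartum. It was lower in all 5 AP cows and, in LP, in cows C and E. The difference over both diets was -0.30 (SE 0.137, limma adjusted p = 0.383, lower in 7 of 10 cows), and -0.21 without cow C's postpartum array.

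UGT2A3 differed by -0.56 (SE 0.231, limma adjusted p = 0.305, lower in 8 of 10 cows), with the lowest value in cow E postpartum, 7.31 against 8.34 to 9.51 in the other LP cows. RefSeq gives its accession to UGT2A1, so its identity within the subfamily is uncertain. UGT1A6, a transferase for planar phenols, differed by 0.79 with a wide error (SE 0.482, adjusted p = 0.588, higher in 8 of 10 cows). Its change ran from -1.49 in cow J to 2.88 in cow I. UGT1A1 and UGT1A6 overlap in the annotation, and in the human UGT1A locus different first exons are joined to the same later ones. UGT2B10 differed by 0.38 (SE 0.53), or 0.71 without cow C's postpartum array, and UGT8, which makes galactosylceramide, by 0.01, or 0.03 without it.

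Some related probe sets outside the rule were also called. A further 21 probe sets are described in the workbook as UGT, SULT or GST genes but carry a locus symbol. Of these 21, 4 passed, all in the UGT2 cluster, beside 1.5% of all genes. The 21 were collected by description after the file had been seen, and they are no members. LOC540544, described as UGT2B4, was 2.48-fold lower postpartum (-1.31, SE 0.231, limma adjusted p = 0.00539, 10 of 10 cows), with means of 10.13 ± 0.41 (SD, n = 5) and 8.67 ± 0.40 in AP and 10.00 ± 0.43 and 8.83 ± 0.91 in LP. LOC530553, described as UGT2C1, was 2.87-fold lower (-1.52, SE 0.29, adjusted p = 0.00936, 10 of 10 cows). These 2 passed in all 24 settings run.

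LOC782370, described as UGT2A3, differed by -0.95 (SE 0.189, limma adjusted p = 0.0116, 9 of 10 cows) at a dim signal, with group means of 3.08 to 4.33, and was lost without cow E or cow I (adjusted p = 0.0565 and 0.0537). LOC615303, also described as UGT2B4, was 2.06-fold higher (log2 difference 1.04, SE 0.225, adjusted p = 0.0185, 9 of 10 cows), and its adjusted p was 0.0697, 0.0567, 0.0668 and 0.0611 without cow E, F, I or J. Along the 13 probe sets of the UGT2 cluster 7 mean changes were negative and 6 positive, so the cluster did not move one way. Each of these probe sets holds 8 to 15 probes, and signal shared between near-identical copies cannot be told apart from their own.

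**Figure D3:**
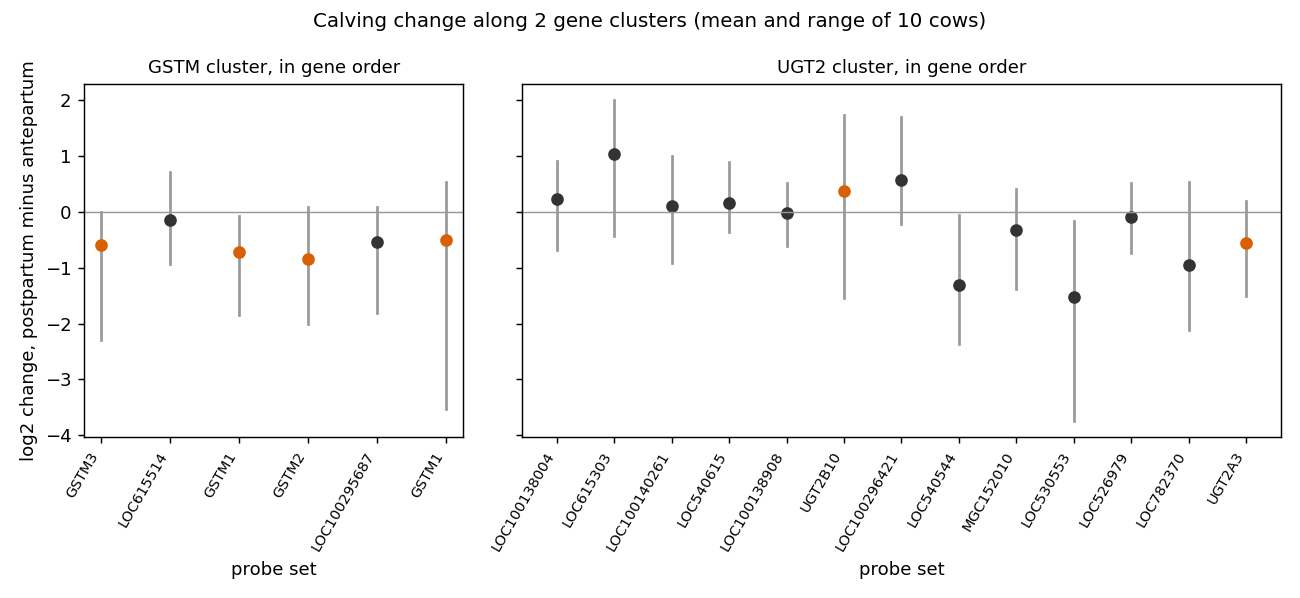
Mean change across calving (postpartum minus antepartum, log2; points) with the lowest and highest of the 10 cows (lines), for probe sets in annotation order; members are orange and locus symbols black. All 6 mu class means lie below 0, while the UGT2 cluster runs from -1.52 (LOC530553) to 1.04 (LOC615303).

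By diet, no member passed for calving within AP (0.415% of all genes did) or within LP (0.015%). At an unadjusted p under 0.05 there were 5 members in AP, where 9.2% of all genes stood, and 3 in LP, where 5.96% did. The 5 in AP were GSTM2, GSTM3, GSTT2, SULT1C2 and UGT2A3 (-0.68, SE 0.327), and the 3 in LP were GSTM3 (-0.66, SE 0.235), GSTT2 and GSTA5 (0.36). GSTM3 in LP was -0.40 without cow C's postpartum array. SULT1D1 in AP (0.21, SE 0.101), SULT2A1 in LP (-0.27, or -0.11 without that array) and UGT1A1 in AP (-0.26) and in LP (-0.34, or -0.15) did not pass.

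Low phosphorus itself was followed by no member call. Antepartum, while the rations differed, 0 of 31 members passed in limma (0.005% of all genes did) and 1 had an unadjusted p under 0.05, where 2.45% of all genes did. That member was SULT1E1, the estrogen sulfotransferase. Antepartum it measured 6.88, 5.38, 4.44, 5.56 and 5.06 in LP cows A to E and 8.75, 5.07, 6.75, 6.49 and 6.99 in AP cows F to J. The groups overlapped, since AP cow G was below 3 LP cows and LP cow A was above 3 AP cows. The difference, LP minus AP, was -1.35 (SE 0.59, limma adjusted p of 1.0). Postpartum the groups measured 5.83 ± 0.82 in LP and 6.62 ± 1.12 in AP.

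The 5 UGT genes had lower means in LP before calving and none passed, from UGT2B10 at -0.64 (SE 0.749) to UGT1A6 at -0.07 (SE 0.682). UGT1A1 was at -0.23 (SE 0.193) and UGT2A3 at -0.39 (SE 0.327). GSTM2 at -0.51 (SE 0.287), GSTA4 at -0.47 (SE 0.252) and SULT2B1 at -0.22 (SE 0.13) were below the AP mean in 5 of 5 LP cows and did not pass (limma adjusted p of 1.0 each). All 8 macrophage markers were higher in LP antepartum, by 0.35 to 0.67 with a median of 0.476, and 0 passed in limma. Of these 6 had an unadjusted p under 0.05, where 2.45% of all genes did. Their mean ran from 9.12 to 10.05 in LP, with a median of 9.84, and from 9.10 to 9.55 in AP, with a median of 9.17, and their part in these values was not tested.

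Postpartum 0 of 31 members passed in limma (0.005% of all genes did) and 2 had an unadjusted p under 0.05, where 5.66% of all genes did. SULT2B1 measured 5.48, 5.73, 5.37, 5.58 and 5.24 in LP cows A to E and 5.89, 5.71, 5.80, 6.23 and 6.30 in AP cows F to J. The overlap was 1 cow on each side, LP cow B at 5.73 above AP cow G at 5.71. The difference was -0.51 (SE 0.13, unadjusted p = 0.000816, limma adjusted p = 0.812), and -0.48 without cow C's postpartum array. SULT1D1 differed by -0.27 (SE 0.101, adjusted p = 0.812) with groups that did not overlap, as in 0.645% of all genes, at a signal of 2.06 to 2.55, far below the lower quartile of the arrays.

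Among all members 23 of 31 were lower in LP postpartum with a median of -0.133, which was -0.003 without cow C's postpartum array. Several of these differences were smaller without it. GSTM3 was at -0.46 with it and -0.19 without, GSTK1 at -0.29 and -0.06, UGT1A1 at -0.30 and -0.12, and UGT2B10 at -0.75 and -0.11. None of these passed.

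**Figure D4:**
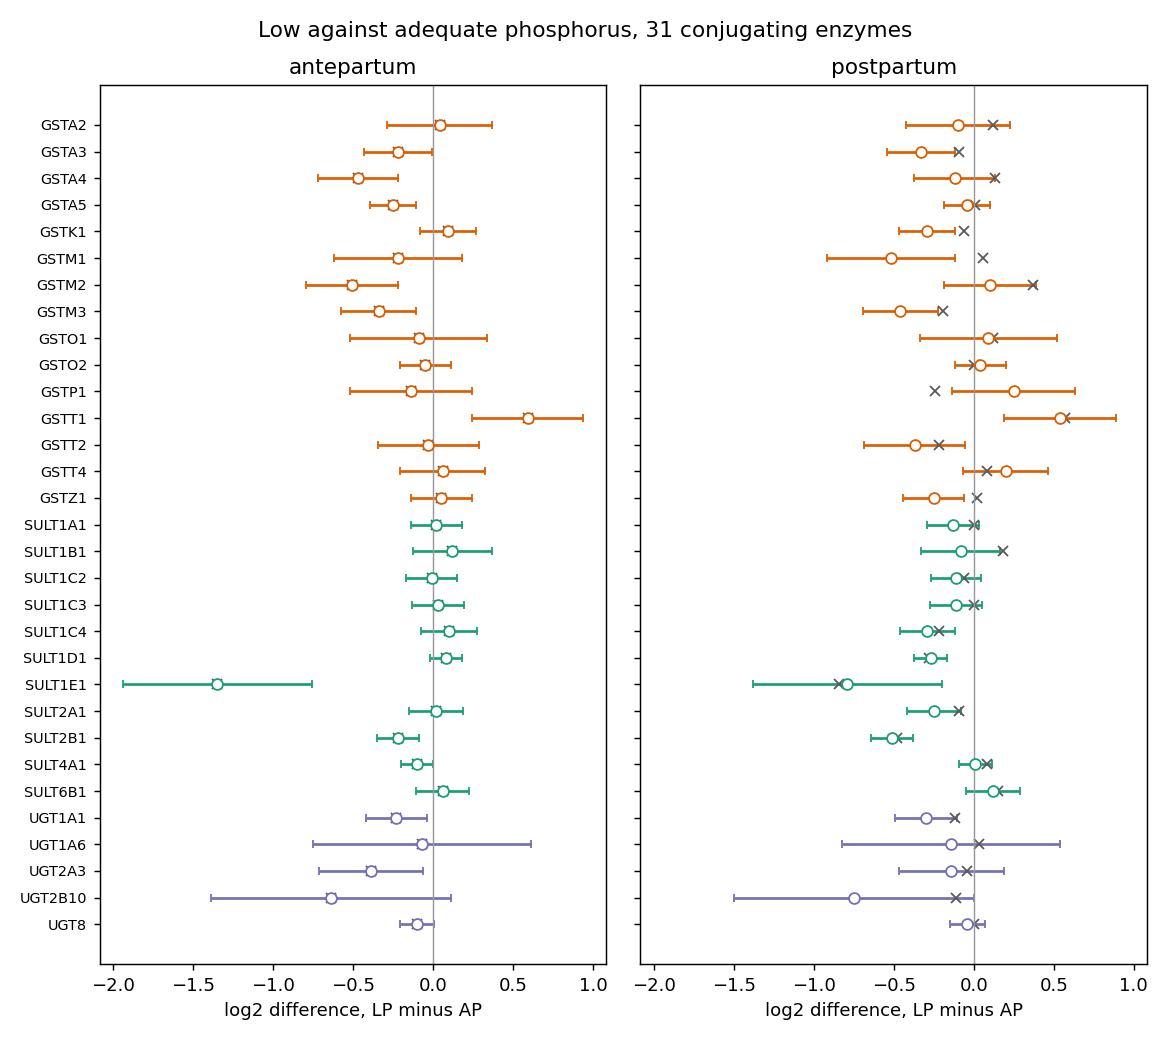
Log2 difference, LP minus AP, of the 31 members before (left) and after calving (right), with bars of 1 SE from limma and colours by family as in the plot of calving differences; crosses leave out cow C's postpartum array. No member passed in either panel, and SULT1E1 lies lowest in both, at -1.35 and -0.79.

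For a difference between the diets in the change across calving, no member passed the interaction test in limma, in which 0.0% of all genes passed. The values of GSTM2 are given with that gene above. At an unadjusted p under 0.05 there was 1 member, SULT1D1 (-0.35, SE 0.143, adjusted p of 1.0), where 2.79% of all genes stood. GSTK1 was at -0.37 (SE 0.248) and at -0.15 without cow C's postpartum array. SULT1C4 was at -0.39 (SE 0.245), UGT2A3 at 0.25 (SE 0.463) and UGT8 at 0.07 (SE 0.153).

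In part of the members the same cow stood lowest or highest before and after calving. Over the 9 cows other than C, the same cow was lowest at both times in 11 of 31 members (35.5%, where 15.8% of all genes did so), and the same cow was highest at both times in 9 (29.0%, where 17.3% did so). GSTO1, which acts on thiols and dehydroascorbate, was 1 of the 11. Its cow means had an SD of 0.75 and its 2 values within a cow an SD of 0.18. The SD of cow means pools both diets and so holds any diet difference. The SD within cows leaves out the mean change across calving. Cow G, the lowest, measured 6.16 and 5.53 before and after calving. The highest was cow I before it, at 8.19, and cow B after it, at 8.25, with cow B at 8.18 before.

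GSTT1 had an SD of 0.63 between cow means and 0.25 within cows. Cow I was lowest at both times, at 7.25 and 6.83, and cow H highest among the 9, at 9.17 and 9.32. GSTP1 had 0.37 and 0.20, with cow A lowest at 7.59 and 7.56 and cow H highest at 8.50 and 8.88. UGT2B10 spread widely on both counts, with an SD of 1.04 between cow means and 0.65 within cows, from 5.91 in cow G to 10.67 in cow I among AP cows postpartum. SULT1E1 varied as much within cows (1.01) as between them (0.89), and UGT1A6 likewise (0.88 and 1.04). These are descriptions of 9 cows without a test.

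**Figure D5:**
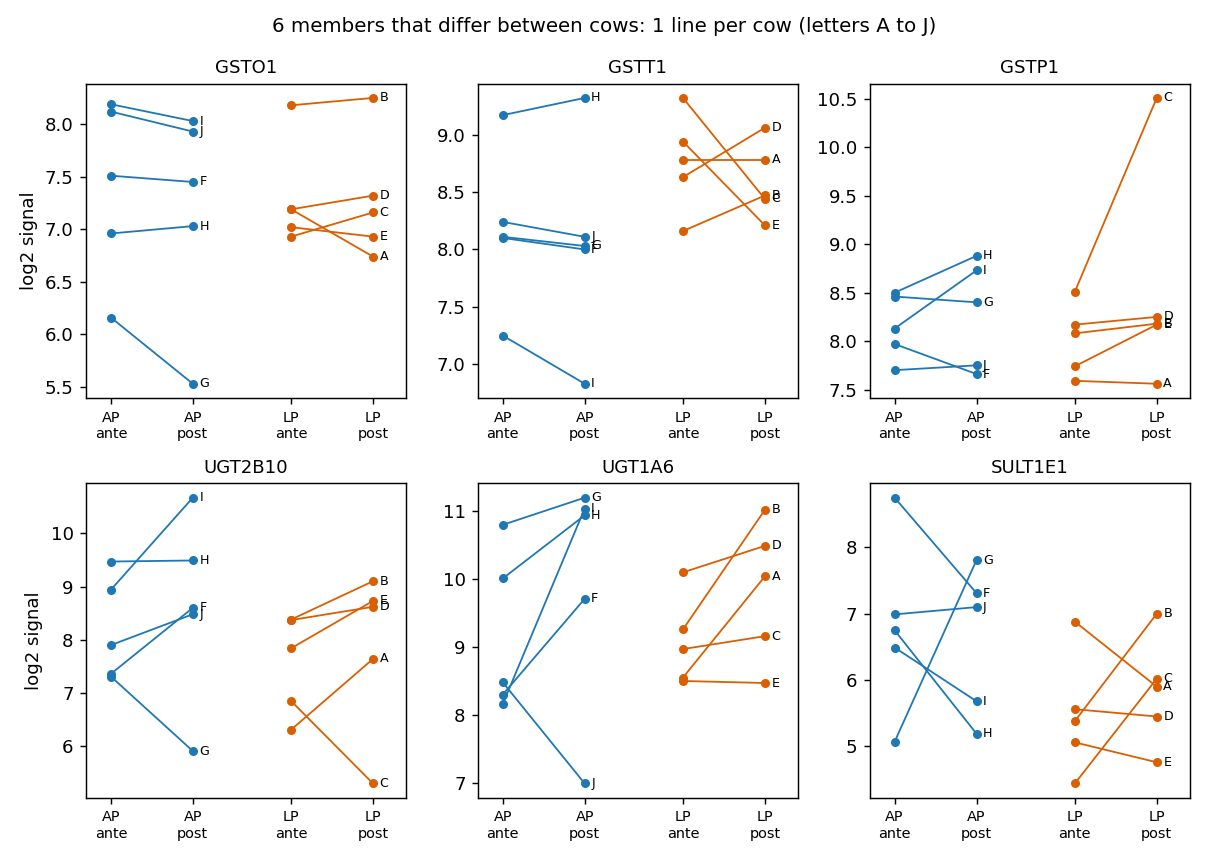
Log2 signal of 6 members before and after calving, 1 line per cow with its letter, AP in blue and LP in orange. Cow G stays lowest and cow B near the top for GSTO1, cow I stays lowest for GSTT1, and cow C is alone at 10.51 for GSTP1.

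Genes that supply or follow these enzymes changed in small number across calving. Beside the counts of each list, 1.5% of all genes passed over both diets, and 11.9% had an unadjusted p under 0.05. Of 8 UDP-glucuronate and UGT support genes 1 passed, GUSB, the lysosomal beta-glucuronidase that removes glucuronic acid again. It rose 1.31-fold (0.39, SE 0.0843, limma adjusted p = 0.018, with 9 of 10 cows higher), and by 0.56 in AP (adjusted p = 0.0366). The median of the list was 0.12. The call over both diets was lost without cow D, F, H, I or J, with adjusted p up to 0.0689. Of 13 sulfate and PAPS genes 1 passed, SLC13A1, a sodium and sulfate cotransporter, which fell 1.51-fold (-0.60, SE 0.138, adjusted p = 0.0299, 10 of 10 cows). It was lost without cow D, E, F, I or J, with adjusted p up to 0.108, and without cow F's antepartum array (0.0586). The median was -0.003.

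Of 11 conjugate transporters 1 passed, SLC22A7, an organic anion transporter of the hepatocyte's blood side, which differed by -0.59 (SE 0.129, limma adjusted p = 0.0186, 9 of 10 cows), and which was lost without cow A, E, F, I or J, with adjusted p up to 0.0767. The median of this list was -0.073. None passed of 21 glutathione supply and turnover genes (median -0.054). Of these 5 had an unadjusted p under 0.05, where 11.9% of all genes did, led by GGCT at 0.37 (adjusted p = 0.278). None passed of 6 microsomal glutathione transferase family genes (median -0.021, 2 at an unadjusted p under 0.05), led by MGST1 at -0.31 (SE 0.0913, adjusted p = 0.109, lower in 9 of 10 cows).

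None passed of 14 receptors and factors that act on these genes (median -0.029). At an unadjusted p under 0.05 there was 1, where 11.9% of all genes stood. The lowest p was that of the coactivator PPARGC1A, at 0.52 (SE 0.144, limma adjusted p = 0.081), which passed with the cow as a block (0.0236) and without cow C's postpartum array (0.0033). None passed of 11 other conjugating enzymes (median -0.067, 1 at an unadjusted p under 0.05), led by GLYATL3 at -0.45 (adjusted p = 0.375). In the 2 diet comparisons and the interaction none of these genes passed.

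Some marker genes of hepatocytes and macrophages also passed across calving, where 1.5% of all genes did. All 5 pericentral hepatocyte markers were lower on average postpartum, and CYP2E1 (-0.34, limma adjusted p = 0.0104) and LGR5 (-1.03, adjusted p = 0.00665) passed. Of the 5, TBX3 was lower only with cow C's postpartum array. It was at 0.22 in AP and at -0.27 in LP, or -0.10 in LP without that array. The median of the 5 was -0.325. The mean of the 5 ran from 8.87 to 9.26 antepartum and from 8.48 to 8.93 postpartum over both diets. The 6 periportal markers split, 4 higher and 2 lower with a median of 0.153. Of these HAL, the histidine ammonia-lyase, was higher (1.29, limma adjusted p = 0.0159, 9 of 10 cows), though not past the test without cow D, E, F or J (adjusted p up to 0.0647), and CDH1, E-cadherin, was lower (-0.79, adjusted p = 0.00227, 10 of 10 cows). The 6 general hepatocyte markers also split, 3 higher and 3 lower. APOA1, an apolipoprotein of HDL, rose (1.31, limma adjusted p = 2.4e-05) and TTR, the transthyretin carrier, fell (-0.61, adjusted p = 0.00539). AHSG, fetuin-A, was lower (-0.43, adjusted p = 0.048) and missed the test with the cow as a block (0.0978), without cow D, E, F, H, I or J (adjusted p up to 0.183) and without cow F's antepartum array (0.0856). All 8 macrophage markers were lower, with a median of -0.404, and C1QC passed (-0.56, adjusted p = 0.034), though not without cow C, D, E, F, H, I or J (adjusted p up to 0.126) or cow F's antepartum array (0.0726). Their mean ran from 9.10 to 10.05 antepartum and from 8.61 to 9.54 postpartum. The part of any of these marker lists in the changes of GSTM2 and GSTT2 was not tested.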

How the data were processed

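The authors deposited a log2 signal per probe set and array for 24333 probe sets, made with SST-RMA per the file headers; the submitters' processing notes name RMA and Affymetrix Expression Console 1.4. Labelling started from 200 ng of RNA, per the labels' protocols. The deposited workbook also holds the authors' log2 ratio and unadjusted paired p-value. A second table held the same values, rounded (largest difference 0.005). Array medians lay between 5.97 and 6.14; a shift shared by all genes is therefore invisible. For the coordinates, no genome build is named in the files or labels used. Names were compared with RefSeq (ARS-UCD2.0), which holds 28 of the 31 symbols.

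Groups were compared by limma 3.58.1 (R 4.3.3), fitted to 4 group means of 20 arrays. Its two-sided p-values were adjusted by Benjamini-Hochberg across 20011 genes, and dim genes were kept. The number of arrays limits the precision: the median SE was 0.099 for time, 0.14 within a time or diet and 0.198 for the interaction. The same code recovered 97% of simulated 2-fold changes across calving (both diets) and 73% in the interaction, with 20011 genes each. The simulated noise was independent between arrays, without pairs from 1 cow or an outlying array, and the changed genes were drawn from all genes. These shares therefore do not give the power for single members, whose SE can be larger (for time 0.223 in GSTT2 and 0.203 in GSTM2). The 4-digit number in each title was read as the animal number and used to pair the arrays. Residuals of the same animal correlated with a median r of 0.167 (0.072 to 0.312). Members and lists were chosen with earlier results of these data known. Named were members that passed, the 2 of lowest p per family and comparison, and 1 gene per other list.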

Additional observations from a re-analysis of the deposited data

Results flagged for a closer look

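Of 124 groups of 5 arrays, 12 held an array set apart from the other 4 by Dixon's criterion, where chance gives about 5%. The share over all genes is not given here. The postpartum LP array of cow C accounted for 7 of the 12. There GSTA3 measured 9.19 against 10.24 to 10.54 in the other LP cows, GSTK1 8.41 against 9.45 to 9.64, and GSTM1 8.31 against 11.15 to 11.33. GSTZ1 measured 8.45 against 9.75 to 9.93, SULT1B1 7.25 against 8.35 to 8.77, and SULT1C3 5.08 against 5.56 to 5.66. GSTP1 was the 1 member set apart upward, at 10.51 against 7.56 to 8.25.

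The other 5 were antepartum, and whether their number exceeds chance was not tested. In LP, GSTA3 was low in cow A, at 9.35 against 10.02 to 10.2, and GSTO1 was high in cow B, at 8.18 against 6.93 to 7.19. In AP, SULT1C4 was low in cow G, at 10.18 against 10.86 to 11.12, UGT2A3 was high in cow H, at 10.19 against 9.36 to 9.57, and UGT8 was high in cow G, at 4.83 against 4.29 to 4.44.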

How the results depend on the processing

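The 2 members called for time over both diets became 1 with the replicate block, 5 with array weights (GSTA5, GSTM2, GSTM3, GSTT2 and SULT1C2), 0 without the antepartum array of cow F, an alternative added after seeing the data, and 0 to 3 when each cow was left out. The fits of the dimmer GSTM1 probe set without single cows or arrays were also chosen after seeing the data. GSTT2 passed in 19 of 24 settings and GSTM2 in 15. In AP the 0 members became 1 with the replicate block, 1 with a random replicate block, 1 with the dimmer probe sets (both added after seeing the data), 1 without cow C's postpartum array, 2 with array weights, 4 with only the groups compared, 3 at an unadjusted p under 0.05 with at least 1.5-fold, and 0 to 1 when each cow was left out. That unadjusted rule gave 2 members in LP and 1 for diet antepartum. The replicate block changed no other call of a member. The UGT8 interaction turned negative with quantile normalization (-0.004) and without cow G or cow A, with a range of -0.029 to 0.133 when each cow was left out. Single-member values were counted only for members in the comparisons for which they were named. Of these, 806 kept direction and side of the threshold, 12 newly passed, 14 no longer passed and 3 reversed. The newly passing values of GSTM3, GSTA5 and the dimmer GSTM1 set lie outside this count. Causes were not tested. With only the groups compared, the arrays of the other groups enter neither the fit nor its estimate of the spread. A filter on dim genes would remove GSTA5, GSTO2, SULT1D1, SULT6B1 and UGT8, for which signal near background limits any statement.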
